A study of Mus musculus with 28 samples.

Results

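The collagen and laminin chains are the protein-coding genes whose mouse symbols name a collagen alpha chain (Col, a number, a, a number) or a laminin alpha, beta or gamma chain (Lama, Lamb or Lamc and a number). The symbol in each transcript name decided membership, and no measured value was used. There were 55 of them among 53392 genes, 44 collagen and 11 laminin chains, with 280 transcripts. They were followed through messenger RNA of kidney cells from male FVB mice in 2 fractions, endothelial cells drawn with CD31 microbeads and proximal tubular cells collected by microdissection after digestion of the kidney. The labels assign 28 samples to 10 groups, which are both cell types with ischemic acute kidney injury (AKI) plus exosomes, AKI plus miR-486-5p mimic, AKI plus scrambled miRNA, AKI without treatment, and sham. Each group has 3 libraries except the mimic groups, which have 2, although the extraction protocol speaks of 3 mice in each group. Per-library values were analysed for the exosome, mimic and scrambled-miRNA groups of both cell types, in 16 libraries, so every per-library value comes from an injured kidney. Untreated AKI and sham, per the labels reanalyses of samples of an earlier series, entered only through 12 comparison tables of the authors. No label gives the age of the mice, the time of sampling or the source cells of the exosomes.

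Collagens and laminins are secreted trimers that form the framework of basement membranes and of the interstitial matrix. Collagen IV, built from chains encoded by Col4a1 to Col4a6, and laminins, each made of an alpha, a beta and a gamma chain, are the networks on which kidney epithelium and endothelium rest. The glomerular basement membrane holds the Col4a3, Col4a4 and Col4a5 chains and a laminin of Lama5, Lamb2 and Lamc1, and other kidney basement membranes hold mainly the Col4a1 and Col4a2 chains. Collagen XVIII (Col18a1) and collagen XV (Col15a1) are multiplexins, proteoglycans of the basement membrane zone, and collagens I, III and V form interstitial fibrils.

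Several chains lie next to each other in the genome. In GENCODE M21 (GRCm38), 3 collagen IV pairs are head to head: Col4a1 and Col4a2 on chromosome 8 overlap by 22 bases at their 5′ ends, Col4a4 and Col4a3 on chromosome 1 are 71 bases apart, and Col4a6 and Col4a5 on chromosome X are 1308 bases apart. The promoter windows of Col4a1 and Col4a2 are shown because both genes were called together in the tubular exosome comparison and because the windows share sequence. Each runs from 250 bases before to 50 bases after a RefSeq start (build GRCm38.p6), and capitals mark the 78 bases that both windows hold, read from opposite strands.
Col4a1, chr8:11312777-11313076, minus strand: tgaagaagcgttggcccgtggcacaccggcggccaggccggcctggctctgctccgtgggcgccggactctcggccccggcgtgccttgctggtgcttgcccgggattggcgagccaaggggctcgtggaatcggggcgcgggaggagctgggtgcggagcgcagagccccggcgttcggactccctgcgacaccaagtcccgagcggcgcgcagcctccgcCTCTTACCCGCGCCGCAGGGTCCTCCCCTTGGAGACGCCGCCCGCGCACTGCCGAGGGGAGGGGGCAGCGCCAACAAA
Col4a2, chr8:11312555-11312854, plus strand: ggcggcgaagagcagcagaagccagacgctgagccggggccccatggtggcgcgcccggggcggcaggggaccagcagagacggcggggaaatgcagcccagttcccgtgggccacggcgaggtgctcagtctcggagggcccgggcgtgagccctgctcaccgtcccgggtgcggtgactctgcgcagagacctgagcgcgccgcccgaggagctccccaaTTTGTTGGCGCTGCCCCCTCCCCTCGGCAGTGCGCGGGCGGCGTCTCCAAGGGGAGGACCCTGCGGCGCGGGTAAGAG
Col18a1 has a pair of RefSeq starts far apart on chromosome 10, and both windows are shown because its transcripts are divided between them. Capitals mark the GC box, searched as GGGCGG on both strands.
Col18a1, upstream start, chr10:77166481-77166780, minus strand: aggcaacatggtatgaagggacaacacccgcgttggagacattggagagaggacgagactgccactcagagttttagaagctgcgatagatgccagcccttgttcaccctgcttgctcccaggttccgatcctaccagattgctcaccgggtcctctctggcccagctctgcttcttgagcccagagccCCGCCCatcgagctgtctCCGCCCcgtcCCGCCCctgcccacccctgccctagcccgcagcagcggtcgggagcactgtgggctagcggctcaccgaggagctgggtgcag
Col18a1, downstream start, chr10:77113656-77113955, minus strand: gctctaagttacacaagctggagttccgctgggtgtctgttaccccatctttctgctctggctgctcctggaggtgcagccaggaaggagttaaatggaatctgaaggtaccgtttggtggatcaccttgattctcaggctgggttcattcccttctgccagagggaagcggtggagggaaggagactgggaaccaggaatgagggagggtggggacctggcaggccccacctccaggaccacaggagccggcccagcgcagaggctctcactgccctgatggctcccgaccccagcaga
The upstream window holds 3 GC boxes, and the letters GGGCGG do not occur in the downstream window on either strand. Promoter windows were found for 40 of the 55 chains, 44 windows in all. The GC box occurred in 26 of these 44 windows (59.1%) and in 35.7% of the 32851 windows of the same length in the RefSeq table. The CCAAT box (CCAAT, both strands) was in 14 chain windows (31.8%) and in 37.4% of all windows, TATAAA was in 5 (11.4%) and 13.6%, and the AP-1 letters TGANTCA were in 1 (2.27%) and 7.81%. These are letter matches and not binding sites.

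Gene counts summed to between 8274000 and 25330000 reads a library. The chains held 0.172% to 0.332% of the reads in endothelial libraries and 0.0811% to 0.157% in tubular libraries. Each library was checked against cell type markers, given as summed TPM. All 15 endothelial markers, among them Pecam1, Cdh5 and Kdr, were higher in the endothelial libraries by edgeR's test (median log2 fold change 3.79), with summed levels of 531 to 1169 TPM there and 34.2 to 86.3 TPM in tubular libraries. The endothelial libraries also held thick ascending limb markers (Umod, Slc12a1, Cldn16 and others) at 3663 to 13960 TPM, podocyte markers (Nphs1, Podxl and others) at 294 to 536 TPM and proximal tubule markers (Slc34a1, Lrp2, Cubn and others) at 1623 to 15200 TPM, so this fraction is CD31-enriched and not pure. Tubular libraries had proximal tubule markers at 13800 to 43400 TPM. Injured tubule markers summed to 906 to 12880 TPM in endothelial libraries and 76.6 to 2038 TPM in tubular libraries. One endothelial library, exosome library 1, stood apart with 15200 TPM of proximal tubule markers, against 2514 and 1623 TPM in the other exosome libraries. Results that rest on it are given with and without it.

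Levels were compared between chains as RPKM, reads scaled to the library total (with no TMM factor) and to the length in kilobases of the longest protein-coding transcript, because TPM sums were dominated for some genes by short transcripts: transcripts under 1500 bases took a median of 18.2% of TPM but 2.30% of reads over 26 chains in endothelial libraries, and 31.7% of TPM but 3.29% of reads over 16 chains in tubular libraries. In the endothelial fraction, collagen IV, collagen XVIII and the laminin beta chains were the most abundant. Col4a1 had 39.5, 59.5 and 116 RPKM as the lowest, median and highest of 8 libraries, Col18a1 had 33.5, 66.5 and 110, and Col4a2 had 26.1, 39.0 and 80.8. Others at high levels were Lamb1 (33.7, 44.7 and 53.3), Lamb2 (15.3, 26.8 and 36.2), Col4a4 (18.7, 23.9 and 30.9), Col4a3 (15.1, 17.9 and 19.7), Lamc1 (10.2, 14.4 and 18.3), Lama5 (6.89, 14.4 and 15.7) and Col4a5 (6.21, 8.96 and 10.7). The ranges of Col4a1, Col18a1 and Col4a2 overlap, as do those of Lamc1 and Lama5, so the order within each of these sets is not separated by the spread between libraries.

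In the tubular fraction Col4a1, Col18a1 and Col4a4 had the highest means over the 8 libraries, but the order differed between treatments. Col4a1 had 14.6, 24.7 and 46.4 RPKM as lowest, median and highest, Col18a1 had 6.45, 12.7 and 59.0, and Col4a4, a chain of the distal tubular and glomerular collagen IV network, had 10.1, 19.8 and 32.5. By treatment, Col18a1 averaged 8.89 ± 2.53 RPKM with exosomes (SD, n = 3), 10.2 ± 5.14 with mimic (n = 2) and 42.3 ± 17.0 with scrambled miRNA (n = 3), so its place rests on the scrambled-miRNA libraries. Col4a4 had the higher mean than Col4a1 with exosomes (19.3 and 16.0 RPKM) and with mimic (29.5 and 24.7 RPKM), and the lower one with scrambled miRNA (17.4 and 41.2 RPKM). Lamb1 had 9.79, 16.1 and 20.2 RPKM over all 8 libraries, Col6a6, a long alpha chain of collagen VI, had 5.32, 11.8 and 18.5, and Col27a1, a fibrillar collagen, had 2.75, 4.92 and 9.67. Lama1, the laminin alpha chain of early epithelial and proximal tubular basement membrane, had 1.69, 2.04 and 3.15 RPKM. Ranges of neighbours overlap through this order. At a mean of 1 RPKM or more there were 22 chains in endothelial and 16 in tubular libraries, and at 10 RPKM or more there were 10 and 7.

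**Figure D1:**
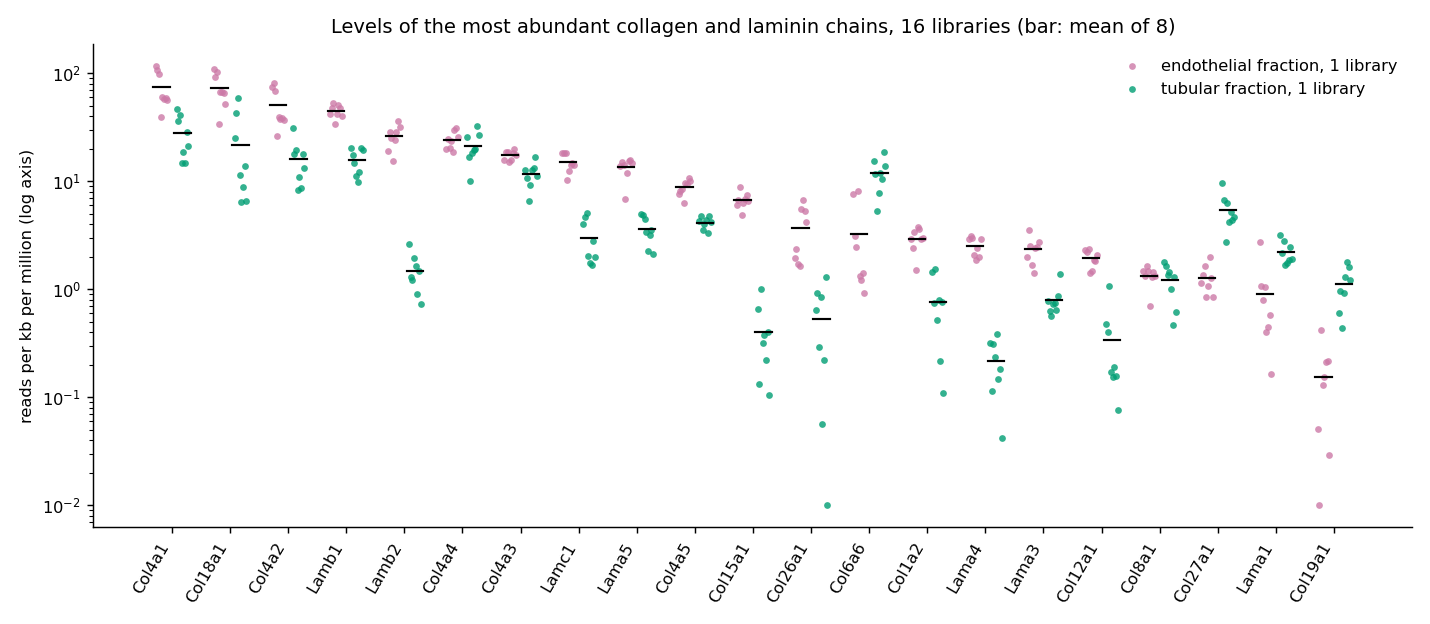
RPKM (log axis) of 21 chains that were among the 18 highest in either fraction, with the endothelial libraries left of the tubular libraries for each chain, 1 point a library and a bar at the mean of 8; values under 0.01 are drawn at 0.01. Over all libraries of a fraction, collagen IV chains, Col18a1 and Lamb1 are among the highest in both, while Col6a6, Col27a1, Lama1 and Col19a1 are the chains with the tubular mean above the endothelial one.

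Other chains were low or absent. Col2a1 and Col9a1, collagens of cartilage, had 0 reads in all 16 libraries, which allows up to 0.0134 CPM over the reads of all libraries together. Col6a4 and Col9a2 had 2 reads each in all libraries together, and 31 of the 55 chains had reads in every library. Floors of this kind cover counting error only.

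Chains that assemble with each other did not have equal RPKM. The ratio of Col4a1 to Col4a2, which form a trimer with a pair of Col4a1 chains, was 1.50 ± 0.081 in endothelial and 1.75 ± 0.22 in tubular libraries (SD, n = 8 each), and Col4a1 was the higher in 16 of 16 libraries. Col4a3 over Col4a4 was 0.733 ± 0.106 in endothelial and 0.566 ± 0.0953 in tubular libraries (SD, n = 8 each). Lamb2 over Lamb1, the beta chains of mature and of developing or tubular laminins, was 0.582 ± 0.129 in endothelial libraries and 0.102 ± 0.0498 in tubular libraries (SD, n = 8 each), and the lowest endothelial ratio, 0.453, was above the highest tubular ratio, 0.175. Lama5 over Lama1 ran from 5.11 to 89.0 in endothelial libraries and from 1.12 to 2.25 in tubular libraries. Col1a1 was below Col1a2, its partner in collagen I, in 16 of 16 libraries, at a ratio of 0.0966 ± 0.0884 in endothelial and 0.433 ± 0.213 in tubular libraries (SD, n = 8 each), although collagen I carries more alpha 1 than alpha 2 chains. GC content was 58.9% for the longest Col1a1 transcript and 55.7% for that of Col1a2, and the part of base composition in the ratio was not tested.

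The first comparison asked what exosomes did to these chains in tubular cells after injury, set against scrambled miRNA. Of 31 chains tested, 5 were lower and 0 were higher in exosome libraries by edgeR's quasi-likelihood test at a Benjamini-Hochberg adjusted p under 0.05, among them the basement membrane chains Lamc1, Col4a1, Col4a2 and Col18a1. Of all 14913 genes tested 5.13% were called, and 2.41% were called lower. The median log2 fold change was -0.59 over the 31 chains and -0.02 over all genes tested. Of all genes tested, 14.4% had every exosome value below every scrambled-miRNA value and 15.9% had every value above. Levels are given below as CPM, a gene's reads scaled to the size of its library with TMM normalisation.

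Lamc1, the gamma chain of most laminins, had 15.2, 14.5 and 14.0 CPM in exosome libraries and 27.7, 34.3 and 35.4 in scrambled-miRNA libraries. The groups did not overlap, and the log2 fold change was -1.15 (SE 0.16, adjusted p = 0.0226 by edgeR). Col4a1 had 94.7, 135 and 109 CPM in exosome libraries and 277, 228 and 250 in scrambled-miRNA libraries. Each exosome value was below each scrambled-miRNA value, with a log2 fold change of -1.16 (SE 0.17, adjusted p = 0.0243 by edgeR). Its head-to-head neighbour Col4a2 had 52.0, 77.2 and 62.1 CPM in exosome libraries and 181, 111 and 115 in scrambled-miRNA libraries, for a log2 fold change of -1.09 (SE 0.23, adjusted p = 0.0379 by edgeR). The 2 genes overlap by 22 bases at their starts, so reads there could be split between them.

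Col18a1 had 63.1, 39.5 and 54.3 CPM in exosome libraries and 127, 230 and 302 in scrambled-miRNA libraries, for a log2 fold change of -2.07 (SE 0.35, adjusted p = 0.0261 by edgeR). The scrambled-miRNA values were spread over more than the whole exosome range, yet the groups did not overlap.

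Injured tubule markers differed between these groups too. Their summed level was 262, 118 and 111 TPM in exosome libraries and 374, 1224 and 2038 TPM in scrambled-miRNA libraries 1, 2 and 3, and 6 of the 11 markers were called lower by edgeR. Of 14 proximal tubule markers 2 were called higher, Slc7a13 and Kap, and 10 had positive log2 fold changes (median over the 14, 0.39). The 14 summed to 32570, 40690 and 29720 TPM in exosome libraries and 19060, 21330 and 13800 TPM in scrambled-miRNA libraries, without overlap. Havcr1 and Lcn2 were among the injury markers called, with log2 fold changes of -5.95 (SE 1.16) and -4.09 (SE 0.97), and Krt20 was at 0 TPM in all exosome libraries. Col18a1 and Lamc1 were also lowest in scrambled-miRNA library 1 and highest in library 3, while Col4a1 and Col4a2 were highest in library 1. Fibroblast and pericyte markers (12, among them Pdgfra, Pdgfrb and Dcn) summed to 8.12, 4.36 and 2.61 TPM in exosome libraries and 18.9, 10.2 and 24.5 TPM in scrambled-miRNA libraries, 0 of 8 tested passed, and Lum was at or near 0 in all libraries. The part of these markers in the chain differences was not tested, and in such bulk samples fewer cells of a type and less RNA per cell cannot be told apart.

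Among the chains not called in the tubular exosome comparison, some had positive log2 fold changes. Col4a3 and Col4a4 had log2 fold changes of 0.45 (SE 0.27, adjusted p = 0.35 by edgeR) and 0.35 (SE 0.28, adjusted p = 0.49 by edgeR). Col12a1, a fibril-associated collagen, had 1.91, 1.94 and 2.45 CPM in exosome libraries and 4.94, 4.41 and 11.2 in scrambled-miRNA libraries and did not pass (log2 fold change -1.70, SE 0.45, adjusted p = 0.06 by edgeR). Counting separation alone, 10 chains (32.3%, against 14.4% of all genes) had every exosome value below every scrambled-miRNA value. Only 1 chain, Lama3 (3.23%, against 15.9%), had every value above. The 10 were the 5 called and Col12a1, Col16a1, Col4a6, Lama1 and Lama5. Of these, Col16a1 had 3, 7 and 6 reads in exosome libraries, and Col4a6 had 4, 2 and 0. They passed the count filter through the scrambled-miRNA libraries (16, 11 and 23 reads, and 13, 4 and 7). Their separation therefore says nothing of the chains as a set. The calls depended on single libraries: without any 1 of the exosome libraries 0 chains were called (with 12, 1 and 1 of all genes called), and without scrambled-miRNA library 2 only Col4a1 and Lamc1 were (with 0.578% of all genes). DESeq2, which called 12.3% of all genes, called 8 chains: the same 5 with Col12a1 and Lamb3 lower and Col19a1 higher. For Lamb3 the groups overlapped, with 0.442, 1.27 and 0.294 CPM in exosome libraries and 0.765, 9.38 and 2.56 in scrambled-miRNA libraries. edgeR with length offsets called 0 chains and 29 of all genes.

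**Figure D2:**
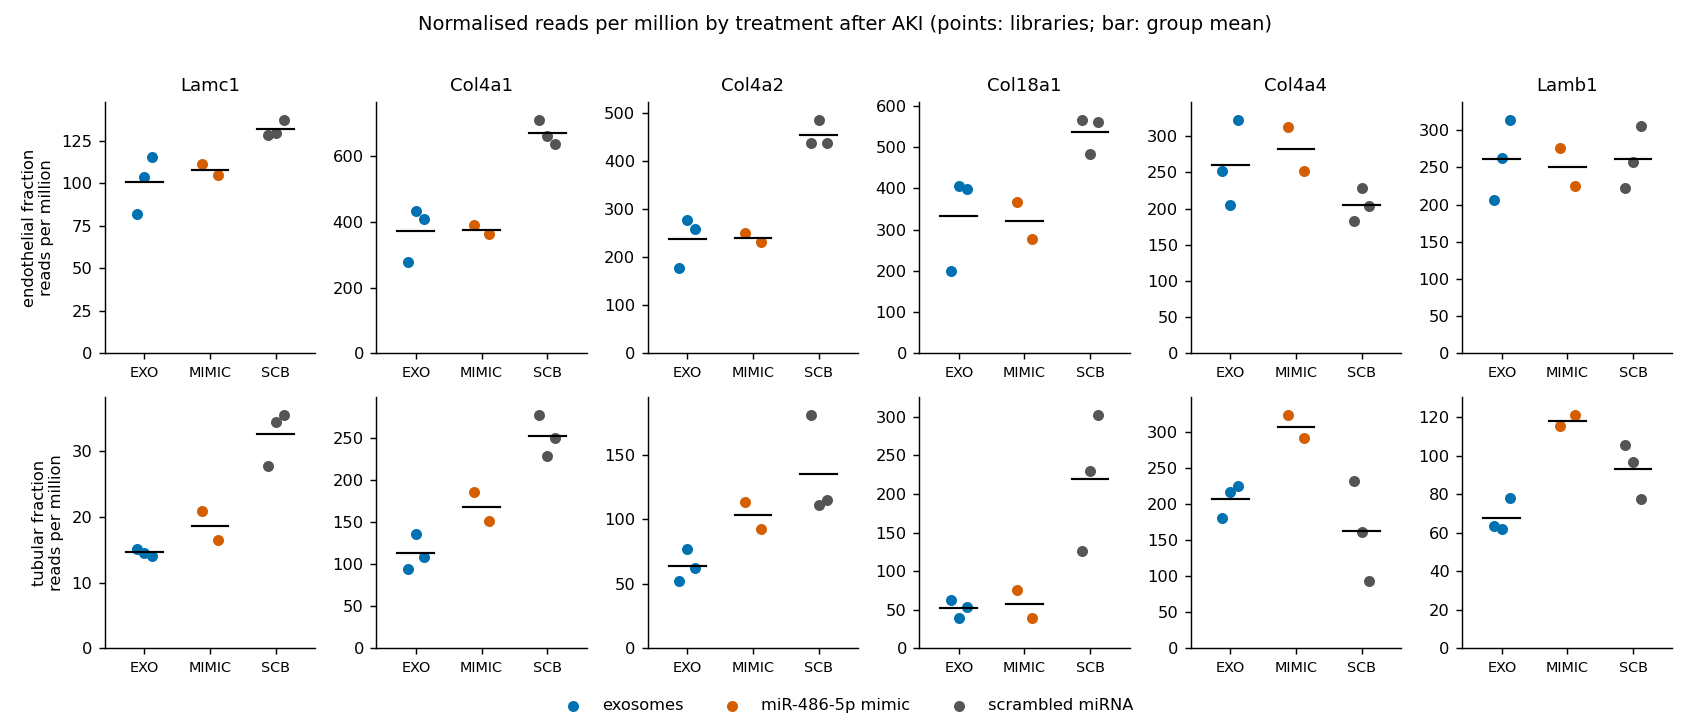
CPM (TMM-normalised) of 6 chains by treatment, endothelial libraries above and tubular libraries below, 1 point a library and a bar at the group mean (n = 3, mimic n = 2). In tubular libraries the exosome values of Lamc1, Col4a1, Col4a2 and Col18a1 lie under all scrambled-miRNA values, while those of Col4a4 do not.

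The mimic of miR-486-5p was set against scrambled miRNA in the same fit. In tubular libraries edgeR called 0 of 31 chains, where 0.0201% of all genes were called. At an unadjusted p under 0.05 there were 10 chains (32.3%), against 16.3% of all genes. DESeq2 called 3 chains lower (Col18a1, Col12a1 and Lamc1), where it called 5.19% of all genes. Col18a1 had 76.3 and 39.7 CPM in mimic libraries and 127, 230 and 302 in scrambled-miRNA libraries, with a log2 fold change of -1.92 (SE 0.41, adjusted p = 0.12 by edgeR). Lamc1 had 20.9 and 16.5 CPM in mimic libraries and 27.7, 34.3 and 35.4 in scrambled-miRNA libraries (log2 fold change -0.80, SE 0.18, adjusted p = 0.12 by edgeR). Col12a1 had 1.79 and 0.961 CPM in mimic libraries, against the 4.94, 4.41 and 11.2 given above for scrambled miRNA (log2 fold change -2.29, SE 0.53, adjusted p = 0.12 by edgeR). In all 3 chains both mimic values were below every scrambled-miRNA value, as were those of 15.9% of all genes.

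Col4a4 lay on the other side, with 324 and 292 CPM in mimic libraries and 233, 162 and 93.4 in scrambled-miRNA libraries (log2 fold change 0.92, SE 0.31, adjusted p = 0.20 by edgeR). Without scrambled-miRNA library 1 edgeR called 3 chains, Col18a1 and Lamc1 lower and Col4a4 higher, with 3.35% of all genes. Injured tubule markers were lower in mimic libraries. They summed to 150 and 76.6 TPM in mimic libraries and 374, 1224 and 2038 TPM in scrambled-miRNA libraries, and all 11 had negative log2 fold changes (median -4.16). Of the 11, 0 passed by edgeR, with 10 at an unadjusted p under 0.05 and 8 called by DESeq2, and their part in the chain differences was not tested. Podocyte markers summed to 16.8 and 9.42 TPM in mimic libraries and 41.8, 13.9 and 23.3 TPM in scrambled-miRNA libraries.

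Mimic and exosome libraries of tubular cells were compared directly. edgeR called 0 of 31 chains and 0% of all genes. At an unadjusted p under 0.05 there were 4 chains (12.9%), against 12.4% of all genes. DESeq2 called 1 chain, Lamb1, higher with mimic, where it called 1.6% of all genes. Lamb1 had 115 and 121 CPM in mimic libraries and 63.4, 62.0 and 77.7 in exosome libraries, without overlap, as 19.8% of all genes had on the same side (log2 fold change 0.80, SE 0.17, adjusted p = 0.31 by edgeR). Col4a1 had 185 and 151 CPM in mimic libraries and 94.7, 135 and 109 in exosome libraries (log2 fold change 0.58, SE 0.19, adjusted p = 0.33 by edgeR). Since the 2 treatments share the scrambled-miRNA libraries, their folds over it are given side by side only.

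**Figure D3:**
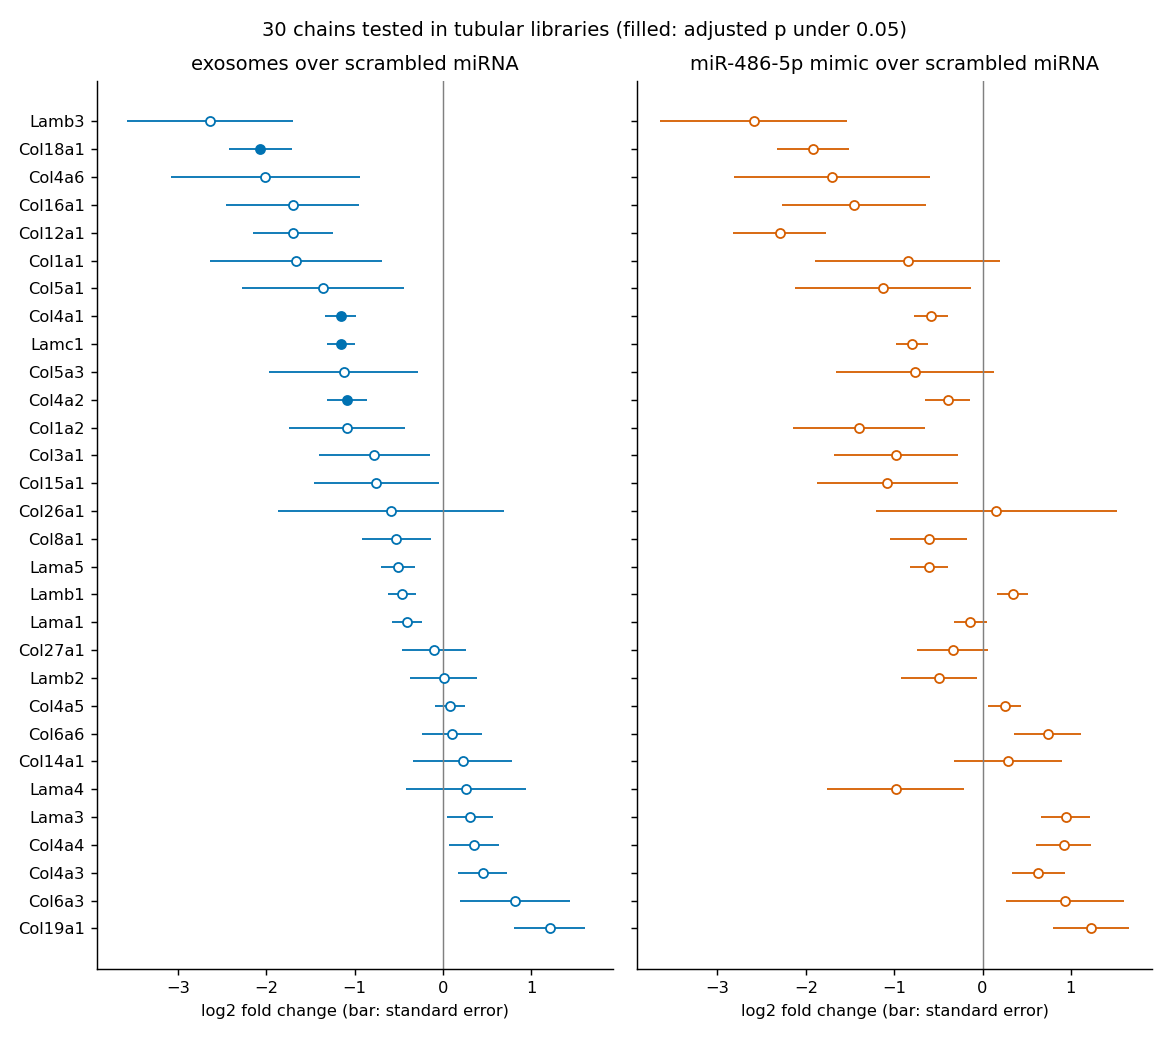
Log2 fold change with its standard error for 30 of the 31 chains tested in tubular libraries, exosomes over scrambled miRNA on the left and mimic over scrambled miRNA on the right, both against the same 3 scrambled-miRNA libraries. Filled points passed an adjusted p of 0.05, which 4 of the chains drawn did with exosomes and 0 with the mimic.

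In the endothelial fraction no chain passed for either treatment. With exosomes over scrambled miRNA, edgeR called 0 of 40 chains and 0% of all genes, with 8 chains (20%) and 11.4% of all genes at an unadjusted p under 0.05. DESeq2 called 3 chains lower (Col4a2, Col4a1 and Col3a1), where it called 2.53% of all genes. Col4a2 had 178, 276 and 258 CPM in exosome libraries and 437, 484 and 437 in scrambled-miRNA libraries (log2 fold change -0.93, SE 0.19, adjusted p = 0.19 by edgeR). Col4a1 had 277, 433 and 408 CPM in exosome libraries and 708, 660 and 636 in scrambled-miRNA libraries (log2 fold change -0.84, SE 0.20, adjusted p = 0.20 by edgeR). Neither chain's groups overlapped, and this is also so without exosome library 1, which has the lowest value of each. Of all genes, 5.96% had every exosome value below every scrambled-miRNA value. Mitochondrial transcripts took 14.6%, 23.8% and 23.0% of reads in endothelial exosome libraries, 15.8% and 14.6% in mimic libraries and 9.08%, 12.6% and 14.3% in scrambled-miRNA libraries, so the scrambled-miRNA values lay below those of either treatment, and the part of this in the chain values was not tested. In tubular libraries they took 9.64%, 10.8% and 14.3% with exosomes, 8.30% and 5.37% with mimic and 4.51%, 9.73% and 7.81% with scrambled miRNA, and these groups overlapped. Without exosome library 1 edgeR called 1 chain, Col26a1, higher with exosomes (log2 fold change 1.81, SE 0.23, adjusted p = 0.0441), with 0.0557% of all genes. Col26a1 had 4.82, 16.8 and 20.0 CPM in exosome libraries 1, 2 and 3, and 4.97, 6.07 and 4.71 in scrambled-miRNA libraries.

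With mimic over scrambled miRNA, edgeR called 0 of 40 endothelial chains and 0% of all genes. At an unadjusted p under 0.05 there were 7 chains (17.5%), against 19.5% of all genes. DESeq2 called 4 chains lower (Col4a2, Col4a1, Col1a1 and Lama1), where it called 8.31% of all genes. Col4a2 had 249 and 231 CPM in mimic libraries and 437, 484 and 437 in scrambled-miRNA libraries (log2 fold change -0.91, SE 0.22, adjusted p = 0.084 by edgeR), and Col4a1 had 390 and 362 in mimic libraries and 708, 660 and 636 in scrambled-miRNA libraries (log2 fold change -0.83, SE 0.23, adjusted p = 0.11 by edgeR). Leaving out exosome library 1, which is in neither group compared here but is in the same fit, 5 chains were called: Col4a1, Col4a2, Col18a1 and Col6a6 lower and Col26a1 higher, with 8.18% of all genes. Lama1 and Col6a6 were lower with mimic in value, Lama1 at 5.56 and 1.52 CPM in mimic libraries and 23.8, 9.55 and 7.49 in scrambled-miRNA libraries. Proximal tubule markers had 2121 and 1815 TPM in mimic libraries and 9063, 4282 and 4840 TPM in scrambled-miRNA libraries.

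Injured tubule markers in the endothelial fraction summed to 1129, 6225 and 906 TPM in exosome libraries, 962 and 1368 TPM in mimic libraries and 9971, 11460 and 12880 TPM in scrambled-miRNA libraries. The endothelial markers summed to 531, 590 and 680 TPM with exosomes, 857 and 1054 TPM with mimic and 620, 1169 and 660 TPM with scrambled miRNA, so the scrambled-miRNA values overlapped with those of either treatment. All 9 distal and collecting duct markers had positive log2 fold changes with either treatment. Their summed level was 285, 294 and 538 TPM with exosomes, 663 and 626 TPM with mimic and 188, 250 and 198 TPM with scrambled miRNA, without overlap. By edgeR 0 of 9 passed in either comparison, with 9 at an unadjusted p under 0.05 in each, and DESeq2 called 6 with exosomes and 9 with mimic. Thick ascending limb markers summed to 5891, 6273 and 9656 TPM with exosomes, 12580 and 13960 TPM with mimic and 3663, 8344 and 5656 TPM with scrambled miRNA. By edgeR 0 of 6 of these passed in either comparison, with 4 (exosomes) and 5 (mimic) at an unadjusted p under 0.05, and 2 and 5 by DESeq2. The part of the tubular RNA in the collagen IV values was not tested. Mimic over exosomes gave 0 of 40 chains and 0% of all genes by edgeR, with 0 chains and 4.05% of all genes at an unadjusted p under 0.05, and 0 chains by DESeq2, which called 0.0307% of all genes.

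Whether the treatment effect differed between the cell types was tested with interaction terms over all 16 libraries. For exosomes edgeR called 0 of 40 chains and 0% of all genes, with 5 chains (12.5%) and 7.78% of all genes at an unadjusted p under 0.05, and DESeq2 called 0 chains and 0.199% of all genes. For Lamc1 the endothelial minus tubular difference in log2 fold change was 0.74 (SE 0.21, adjusted p = 0.52 by edgeR), and for Col4a1 it was 0.30 (SE 0.27, adjusted p = 0.82 by edgeR). For the mimic edgeR called 0 of 40 chains and 0% of all genes, with 7 chains (17.5%) and 15.5% of all genes at an unadjusted p under 0.05, and DESeq2 called 1 chain, Col12a1, and 3.56% of all genes. The Col12a1 difference was 2.10 (SE 0.49, adjusted p = 0.14 by edgeR). Without endothelial exosome library 1, edgeR called 2 chains in the mimic interaction, Col12a1 (2.10, SE 0.50, adjusted p = 0.0377) and Col6a6 (-2.58, SE 0.64, adjusted p = 0.0459), with 3.46% of all genes. The exosome calls in tubular cells are therefore not shown to be particular to that fraction.

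More chains were called between the fractions, with 8 libraries each, than between treatments, with 2 or 3 libraries a group. Comparing endothelial with tubular libraries with treatment in the model, edgeR called 27 of 40 chains higher and 5 lower in the endothelial fraction, against 35.7% higher and 29.8% lower (65.5% in both directions) of all genes. The 40 are the chains that passed the count filter in this fit, and 9 of them did not pass it in the tubular libraries alone, so they were tested through the endothelial libraries. These are Col5a2, Col13a1, Col17a1, Col23a1, Col25a1, Col6a1, Col6a2, Lama2 and Lamc3, of which 6 were called higher, and a count over them says nothing of the chains as a set. Of the 31 chains that passed in both fractions, 21 were higher and 5 lower. Among laminins, Lamb2 had a log2 fold change of 3.95 (SE 0.25), Lama4, the alpha chain of endothelial laminin, 3.40 (SE 0.30), Lamc3 2.42 (SE 0.38), Lamc1 2.23 (SE 0.13), Lama5 1.74 (SE 0.16), Lama2 1.43 (SE 0.48), Lama3 1.36 (SE 0.19) and Lamb1 1.36 (SE 0.14). Lamc3 and Lama2 entered the test through the endothelial libraries, with at most 19 and 16 reads in any tubular library. Counting them, 9 of 11 laminin chains were higher in the endothelial fraction, Lamb3 did not pass (0.70, SE 0.53, adjusted p = 0.26 by edgeR), and Lama1 was lower (-1.69, SE 0.34). In single values, Lamb2 ran from 15.3 to 36.2 RPKM in endothelial and from 0.726 to 2.60 RPKM in tubular libraries, without overlap. Lama4 ran from 1.86 to 3.10 RPKM in endothelial libraries and had a mean of 0.216 RPKM in tubular libraries.

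Collagen IV chains other than Col4a6 had log2 fold changes of 1.47 or less. Col4a6 had at most 13 reads in any tubular library. Log2 fold changes were 3.11 for Col4a6 (SE 0.52), 1.47 for Col4a2 (SE 0.15), 1.27 for Col4a1 (SE 0.13), 0.88 for Col4a5 (SE 0.11) and 0.39 for Col4a3 (SE 0.15), all called higher in the endothelial fraction, while Col4a4 had 0.02 (SE 0.16, adjusted p = 0.92 by edgeR). Col15a1, a collagen of capillary basement membranes, had 3.96 (SE 0.32), with 4.90 to 8.78 RPKM in endothelial and 0.106 to 1.01 RPKM in tubular libraries, and Col18a1 had 1.91 (SE 0.27). Of the fibrillar collagens, Col5a2 (4.28, SE 0.44), Col5a1 (2.43, SE 0.42) and Col1a2 (1.90, SE 0.37) were higher in the endothelial fraction, and Col27a1 (-2.29, SE 0.23) and Col3a1 (-1.05, SE 0.40) were lower. Col5a2 entered the test through the endothelial libraries, with at most 9 reads in any tubular library. Col6a3 was higher (3.07, SE 0.28) and Col6a6, its homologue, was lower (-2.16, SE 0.48). Col19a1, a fibril-associated collagen, was lower (-2.99, SE 0.54), while Col12a1 (2.68, SE 0.30), Col16a1 (1.76, SE 0.41) and Col14a1 (1.17, SE 0.34) of the same class were higher. Of the rarer chains Col26a1 (2.54, SE 0.62) was higher in the endothelial fraction. Col23a1 (3.09, SE 0.72), Col17a1 (2.41, SE 0.72) and Col13a1 (2.33, SE 0.61), which entered the test through the endothelial libraries, had at most 6, 7 and 15 reads in any tubular library.

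Markers of other cells moved with this contrast too: all 10 podocyte markers (median log2 fold change 4.63), 6 of 8 fibroblast and pericyte markers, 8 of 8 macrophage markers and 5 of 6 thick ascending limb markers were called higher in the endothelial fraction. So were 8 of 11 injured tubule markers (median 2.98) and 8 of 9 distal and collecting duct markers, while 13 of 14 proximal tubule markers were called lower. Which cells carry the RNA of each chain was not tested. Endothelial exosome library 1 held 10.6 CPM of Lama1 and 74.6 of Col6a6, where the other exosome libraries held 4.17 and 4.59 of Lama1 and 12.7 and 11.5 of Col6a6. Without it 31 chains were called, with 65.6% of all genes.

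**Figure D4:**
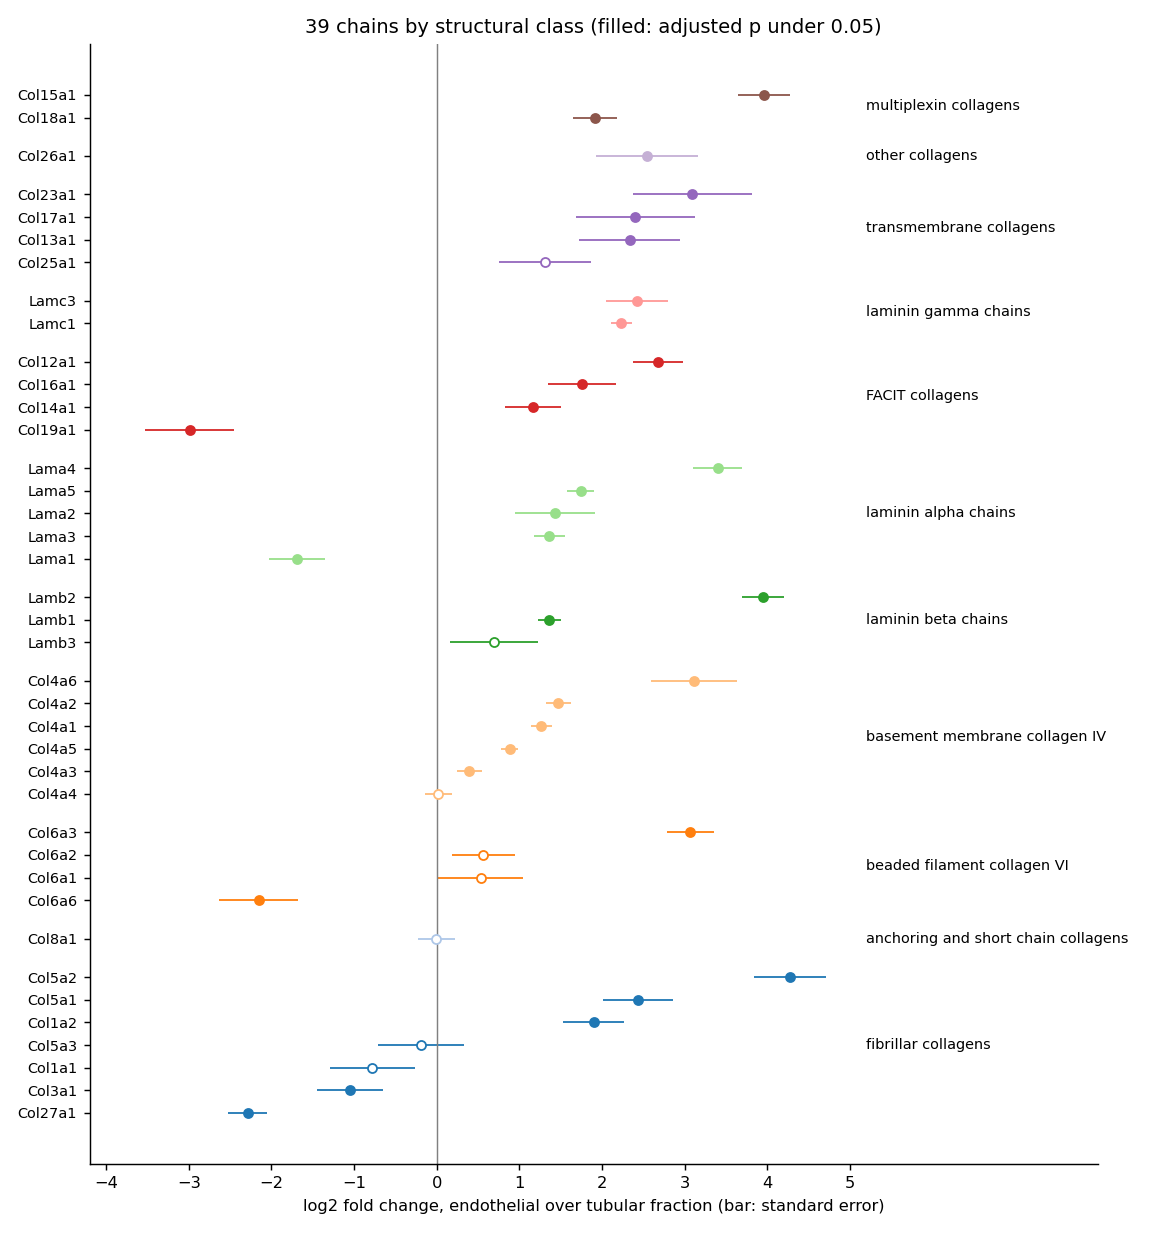
Log2 fold change, endothelial over tubular fraction, with its standard error for 39 of the 40 chains tested, grouped by structural class; filled points passed an adjusted p of 0.05. The 26 chains drawn that were called higher lie right of the line at 0, and Col27a1, Col19a1, Col6a6, Lama1 and Col3a1 lie left of it.

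Partner genes came from 5 lists: basement membrane partners, collagen synthesis and processing, matrix breakdown and inhibitors, collagen and laminin receptors, and TGF-beta ligands and responsive genes. With exosomes over scrambled miRNA in tubular cells, 3 of 9 receptors were lower and 0 higher (list median log2 fold change -0.78). These were Itga6 (-1.25, SE 0.20, adjusted p = 0.0243 by edgeR), the alpha subunit of a laminin-binding integrin, Ddr1 (-1.01, SE 0.14, adjusted p = 0.0218 by edgeR), a collagen receptor kinase, and Itga3 (-0.94, SE 0.18, adjusted p = 0.0307 by edgeR), another laminin-binding integrin subunit. Of 10 TGF-beta genes 1 was lower by edgeR (list median -0.84). Of 11 basement membrane partners 0 passed by edgeR (list median -0.51, 4 at an unadjusted p under 0.05, 3 by DESeq2). Of 18 synthesis genes 0 passed by edgeR (median -0.36, 4 at an unadjusted p under 0.05, 0 by DESeq2), and of 9 breakdown genes 0 passed by edgeR (median -0.11, 1 at an unadjusted p under 0.05, 1 by DESeq2). The median over all genes tested was -0.02. With mimic over scrambled miRNA in tubular cells 0 of the 9 receptors passed by edgeR, with 3 at an unadjusted p under 0.05 and 2 by DESeq2, and the list median was -0.54.

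Between the fractions most partners were higher in the endothelial one, where 35.7% of all genes were called higher and 29.8% lower. In the endothelial fraction 9 of 12 basement membrane partners were higher and 2 lower, 14 of 22 synthesis genes were higher and 4 lower, 14 of 15 breakdown genes were higher and 0 lower, 9 of 10 receptors were higher and 0 lower, and 11 of 13 TGF-beta genes were higher and 0 lower. Only 11, 18, 9, 9 and 10 genes of these lists, in this order, passed the count filter in tubular libraries alone. The others were tested through the endothelial libraries, so their calls say nothing of the lists as sets. The perlecan gene Hspg2 (log2 fold change 4.00, SE 0.18) and the nidogen gene Nid1 (3.87, SE 0.20), whose products link laminin and collagen IV, were among the highest of the partner list. The matrix protease Mmp2 (5.60, SE 0.43) and the laminin receptor Bcam (4.35, SE 0.27) were among the highest of theirs.

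The effect of injury itself could be read only from the authors' comparison tables, whose log2 fold changes put the first named group over the second and appear shrunken toward 0, a step that no header or label records. In them 51 of the 55 chains have a row. In tubular cells, untreated AKI over sham had 14 chains called by the authors' adjusted p under 0.05, 9 higher and 5 lower, of 43 with an adjusted p, where 20.2% of all genes were called. In the authors' deposited table Lama5 was higher in AKI by 1.57 (SE 0.35), Col12a1 by 2.16 (SE 0.55), Col18a1 by 1.42 (SE 0.41), Col1a1 by 3.08 (SE 1.35), Col4a1 by 0.78 (SE 0.25), Col13a1 by 2.31 (SE 1.32), Col6a3 by 1.58 (SE 0.87), Col6a1 by 1.36 (SE 0.85) and Col11a2 by 1.62 (SE 1.91). The same authors' deposited table had Col19a1 (-2.60, SE 0.42), Col6a6 (-1.95, SE 0.46), Lama3 (-0.98, SE 0.35), Col4a3 (-0.82, SE 0.39) and Col4a4 (-0.70, SE 0.28) lower in AKI. Thus within collagen IV, Col4a1 was higher in AKI while Col4a3 and Col4a4 were lower.

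The tables of untreated AKI over treated AKI run the other way round, so a positive value means lower in the treated group. The authors' deposited table of tubular AKI over AKI with exosomes called 14 of 46 chains with an adjusted p, 12 higher and 2 lower in untreated AKI. This share is near the 30.9% of all genes called. Among these chains Lama5 had 2.45 (SE 0.35), Col18a1 2.55 (SE 0.40), Lamb2 2.78 (SE 0.91), Col4a1 1.79 (SE 0.25), Col4a2 1.63 (SE 0.34) and Lamc1 1.16 (SE 0.28). In that authors' deposited table Col4a6, Lamb3, Col6a3, Col13a1 and Col11a2 were also higher in untreated AKI, and Col19a1 (-2.13, SE 0.42) and Col6a6 (-0.90, SE 0.44) were lower. The authors' deposited table of tubular AKI over AKI with mimic called 13 of 44 chains with an adjusted p, where 22.9% of all genes were called. Of these, 10 were higher and 3 lower in untreated AKI. There the authors' deposited table gave Lamb3 3.10 (SE 0.98), Col18a1 2.36 (SE 0.45), Lama5 2.11 (SE 0.39), Col4a1 1.35 (SE 0.29) and Lamc1 1.01 (SE 0.32), and Lama3 -1.17 (SE 0.38), Col6a6 -1.61 (SE 0.51) and Col19a1 -2.39 (SE 0.46). These tables share the untreated libraries.

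Scrambled miRNA was also set against no treatment. The authors' deposited table of tubular AKI over AKI with scrambled miRNA called 6 of 43 chains with an adjusted p. Of these, 5 were higher and 1 lower in untreated AKI. Of all genes 17.8% were called, a larger share than of the chains. In that authors' deposited table Lama5 had 1.95 (SE 0.35), Col6a3 4.42 (SE 0.77), Col11a2 4.63 (SE 1.26), Col13a1 2.83 (SE 1.23), Col20a1 2.60 (SE 1.03) and Col19a1 -1.10 (SE 0.43). Untreated and sham samples come from an earlier series, so in these tables the series and the treatment cannot be told apart. Lama5, which the tables call in AKI against exosomes, mimic and scrambled miRNA alike, was not called in exosomes over scrambled miRNA by edgeR (38.0, 28.1 and 40.1 CPM in exosome libraries and 51.2, 53.4 and 46.6 in scrambled-miRNA libraries, log2 fold change -0.51, SE 0.19, adjusted p = 0.14).

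Set against sham, tubular AKI with exosomes had 0 chains higher and 5 lower in the authors' deposited table, of 43 with an adjusted p. This share is near the 11.2% of all genes called. The 5 included Col4a1 (-0.87, SE 0.26), Lamb1 (-0.73, SE 0.33), Lamb2 (-1.49, SE 1.27) and Lamc1 (-0.69, SE 0.30). Adjusting that table's p-values over all its rows left 2 chains. Tubular AKI with mimic over sham had 0 of 43 chains with an adjusted p called in the authors' deposited table, where 1.03% of all genes were called. The folds of all 51 chains in that authors' deposited table lay between -0.10 (Col4a1) and 0.05 (Col6a1). They appear strongly shrunken toward 0, so their nearness to 0 does not show levels equal to sham.

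In endothelial cells, the authors' deposited table of untreated AKI over sham called 3 chains higher and 0 lower, of 47 with an adjusted p. Of all genes 4.41% were called. The 3 were Col18a1 by 1.40 (SE 0.29), Col4a1 by 1.36 (SE 0.43) and Col13a1 by 3.06 (SE 1.27). AKI with exosomes over sham called 7 of 45 chains with an adjusted p in the authors' deposited table, where 6.73% of all genes were called. Of these, 6 were higher (among them Col1a1, Col12a1, Col1a2, Lama5 and Col18a1) and Col6a6 was lower. Only 1 chain was called when the table's p-values were adjusted over all its rows. AKI with mimic over sham called 9 of 46 chains with an adjusted p in the authors' deposited table, where 11.6% of all genes were called. Of these, 7 were higher (Col17a1, Col14a1, Col3a1, Col1a1, Col12a1, Lama5 and Col18a1) and 2 lower, Col6a6 (-3.28, SE 0.79) and Lama1 (-3.13, SE 1.00). Col18a1 was called higher than sham in all 3 of these authors' deposited tables, at 1.40, 0.71 (exosomes) and 0.88 (mimic), which share the sham libraries.

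Untreated endothelial AKI over AKI with exosomes had 0 of 44 chains with an adjusted p called in the authors' deposited table, where 3.77% of all genes were called. Over AKI with mimic 6 of 47 chains with an adjusted p were called in the authors' deposited table, where 10.2% of all genes were called. Lama1 (2.54, SE 1.06), Col6a6 (1.49, SE 0.93), Col27a1 (1.27, SE 0.40) and Col7a1 (0.41, SE 0.78) were higher in untreated AKI. Col11a1 (-3.85, SE 1.60) and Col14a1 (-1.90, SE 0.74) were lower. Over AKI with scrambled miRNA 2 of 48 chains with an adjusted p were called in the authors' deposited table, where 0.757% of all genes were called. Both were lower in untreated AKI, Col1a1 (-3.69, SE 0.84) and Col3a1 (-0.17, SE 0.34).

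**Figure D5:**
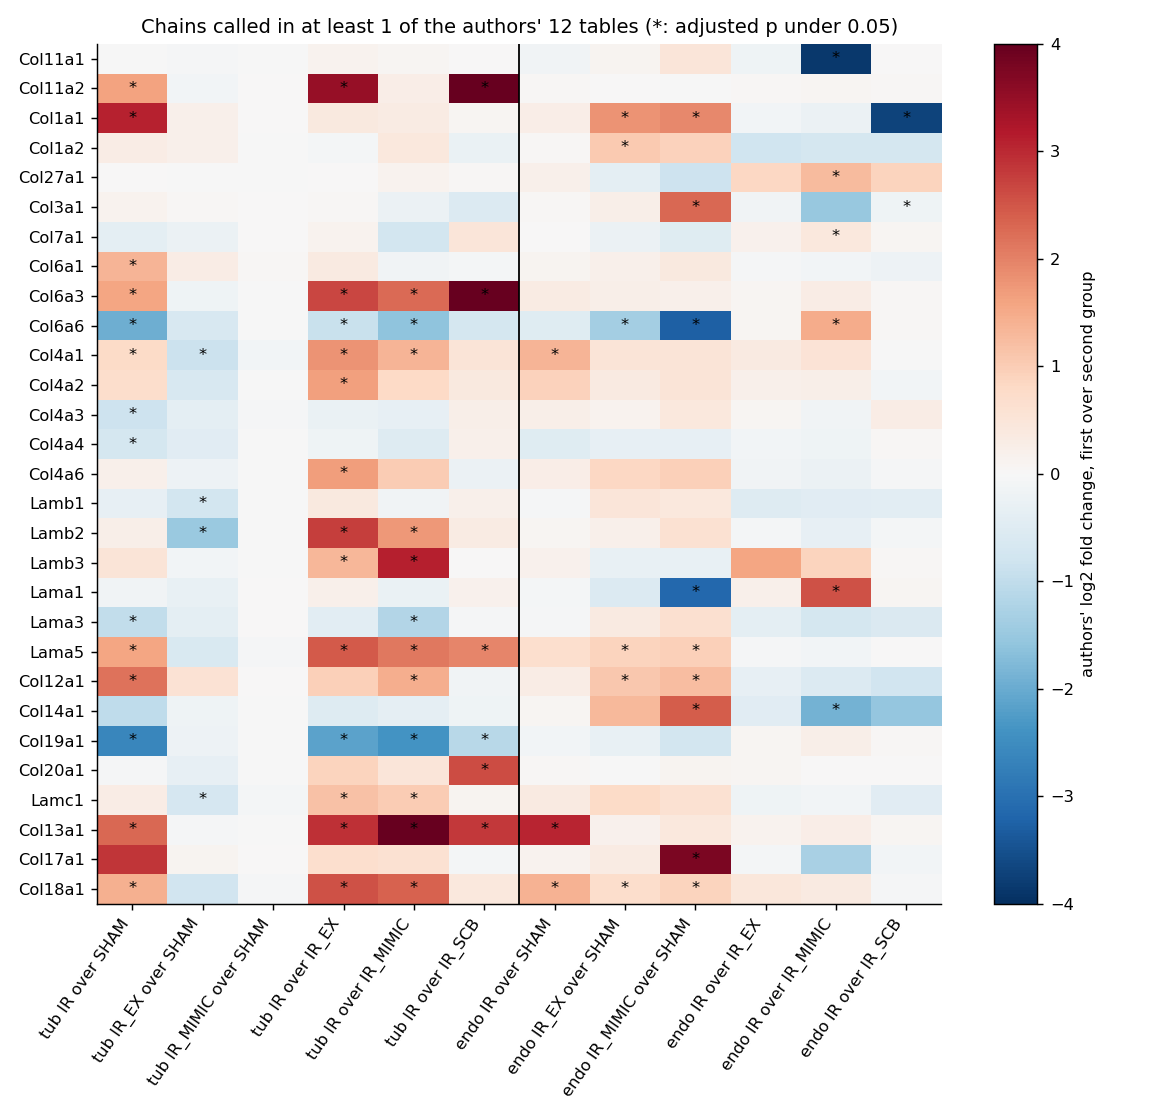
The authors' log2 fold changes, first over second group, for 29 chains called in at least 1 of 12 tables, tubular tables left of the black line and endothelial tables right of it; a star marks the authors' adjusted p under 0.05 and colours stop at 4 and -4. The column of tubular AKI with mimic over sham is close to 0 throughout, and its folds appear strongly shrunken.

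Transcripts of Col18a1 divided between its starts. The transcript that begins within the upstream window shown above took 81.1% of the gene's reads in endothelial and 90.9% in tubular libraries. The pair of protein-coding transcripts that begin within the downstream window, at different bases, took 10.9% and 3.40% in endothelial libraries and 2.82% and 0.386% in tubular libraries. Lama3, the alpha chain of epithelial laminin, had 57.7% of its reads on the long Lama3-201 in endothelial and 36.0% in tubular libraries, and the rest on the short Lama3-202. These shares are estimates that divide shared reads between overlapping transcripts, and no test was run on them.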

How the data were processed

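Messenger RNA was sequenced after polyA selection, per the labels' protocols. Per the submitters' processing notes the tools were Salmon 0.13.1 and DESeq2, with build GRCm38. The deposited transcript files hold the authors' estimated counts and TPM per transcript. The 12 tables the authors deposited hold log2 fold changes, their standard errors (unit log2), p-values and adjusted p-values, and a mean normalised signal per gene (baseMean) that is the authors' own and was not tested. Estimated counts were summed per gene over its transcripts and rounded. edgeR 4.0.16 (R 4.3.3) used TMM scaling, filterByExpr (minimum count 10, minimum total 15), quasi-likelihood tests and Benjamini-Hochberg adjustment at 0.05 over all genes. Each cell type was fitted with its 3 treatment groups, and all 16 libraries together for endothelial over tubular and for the interactions. DESeq2 1.42.0, another scaling, no count filter, length offsets, a replicate block, fits of only the groups compared and omission of each library were the alternatives. The scripts were tested on simulated data. Python 3.11.15, pandas 2.3.3, numpy 2.4.6 and matplotlib 3.10.9 handled the tables and plots. Reads summed to 8274000 to 25330000 a library. The extraction protocol speaks of 3 mice in each group, but no label assigns a library to a mouse. The p-values therefore measure the spread between libraries, which may be technical. The members and gene lists were chosen with earlier results of these data known. Named chains were those called in a comparison, the most abundant of each structural class and the kidney basement membrane chains, and partner genes were at most 5 called a list. In endothelial over tubular nearly all called chains were named, more than the rule's 20, a choice made after their values were seen. Levels per kilobase replaced the planned TPM sums after short transcripts were seen to dominate these. GENCODE M21 gave positions and RefSeq GRCm38.p6 gave promoters. Untreated and sham libraries were not analysed here beyond the tables. Some genes are included in the counts but not reported here by name or drawn.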

Additional observations from a re-analysis of the deposited data

Results flagged for a closer look

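For 3 chains every mimic library lay on one side of every scrambled-miRNA library in the endothelial fraction and on the opposite side in the tubular fraction. That is 9.68% of the 31 chains in both fits, against 6.33% of all 14299 genes in both fits. These shares are near each other, so the count is not a result about the chains as a set. Col6a6, an alpha chain of collagen VI, had a mimic over scrambled miRNA log2 fold change of -1.84 in endothelial libraries and 0.74 in tubular libraries. The interaction test gave -2.58 (SE 1.00, adjusted p = 0.24 by edgeR), and -2.58 (adjusted p = 0.0459 by edgeR) without endothelial exosome library 1. The 14 proximal tubule markers had the same directions. Their median log2 fold change was -1.65 in endothelial libraries (2 positive) and 0.77 in tubular libraries (14 positive). In the interaction it was -2.48 (1 positive). The part of these markers in the Col6a6 values was not tested. Col4a6 had 0.58 in endothelial libraries and -1.71 in tubular libraries (interaction 2.28, SE 1.03, adjusted p = 0.31 by edgeR), and its tubular values were at most 0.904 CPM. It had 9 and 1 reads in tubular mimic libraries and 13, 4 and 7 in tubular scrambled-miRNA libraries. Col4a6 passed the tubular count filter through the scrambled-miRNA libraries. Lama5 had 0.14 in endothelial libraries and -0.61 in tubular libraries (interaction 0.74, SE 0.39, adjusted p = 0.38 by edgeR).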

How the results depend on the processing

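Of the 5 chains called lower in tubular cells with exosomes, 5 kept their call under DESeq2, the other scaling, no count filter and the fit of only the groups compared. The number of chains called was 9 with no count filter, 8 by DESeq2, 0 with length offsets and 0 to 6 when single libraries were left out (of all genes 7.11%, 12.3%, 0.194% and 0.00676% to 9.09%). For tubular mimic over scrambled miRNA, where edgeR called 0, it was 8 with no count filter, 3 by DESeq2 and 0 to 3 leaving out libraries (of all genes 4.78%, 5.19% and 0% to 3.35%). For tubular mimic over exosomes it was 2, 1 and 0 to 1, and 1 with only the groups compared (1.4%, 1.6%, 0% to 0.429%, and 2%). For endothelial exosomes over scrambled miRNA it was 5, 3 and 0 to 1 (3.05%, 2.53% and 0% to 0.34%). For endothelial mimic over scrambled miRNA it was 5, 4 and 0 to 5, and 4 with only the groups compared (6.95%, 8.31%, 0% to 8.18%, and 9.53%). For endothelial mimic over exosomes it was 1 with no count filter (2.25%) and 0 to 0 leaving out libraries (0%). For the exosome interaction it was 3 with no count filter (1.57%), and for the mimic interaction 5, 1 by DESeq2 and 0 to 2 leaving out libraries (5.37%, 3.56% and 0% to 3.46%). Endothelial over tubular gave 30 to 33 leaving out libraries (59.9% to 65.8%), 34 with no count filter (34.9%) and 29 with the shared library number as a block (59.3%). The cause of these changes was not tested. Same-numbered libraries of a cell type correlated at -0.0476 to 0.233 in their deviations from group means, and libraries sharing a number across cell types at -0.109 to 0.0887. With 2 or 3 libraries a group, such values cannot tell whether a shared number marks 1 mouse. With the replicate number as a block, 3 chains were called for tubular exosomes (1.92% of all genes) and 2 for endothelial mimic over scrambled miRNA (4.05%). In the authors' tables, at an adjusted p under 0.01, 8 chains were called in tubular AKI over sham, 1 in tubular exosomes over sham, 0 in endothelial exosomes over sham, 4 in endothelial mimic over sham, 2 in endothelial AKI over mimic and 1 in endothelial AKI over scrambled miRNA. Adjustment over all rows gave 2 in tubular and 1 in endothelial exosomes over sham. Gene TPM levels moved by more than the spread between libraries for 9 of 22 levels with protein-coding transcripts only, 13 without mitochondrial transcripts and 11 per kilobase of the longest transcript, the last chosen after seeing the data. Groups of 2 or 3 libraries limit all treatment tests.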
